A study of Mus musculus with 54 samples.

Results

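Zfp6002 and Zfp_MB018 are 2 KRAB zinc finger proteins (KZFPs) that the study links to RLTR4, a family of murine gammaretroviral endogenous retroviruses. The members described here were all 285 peaks in the lists of these proteins, out of 25012 peaks in the 42 lists of the series, and they were chosen by protein name, without a filter of peak values. Zfp6002 had 114 peaks and Zfp_MB018 had 171. In each list 1 peak lay on an unplaced scaffold, so that 113 and 170 peaks, 283 in all, were placed on chromosomes and analysed.

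Each protein was over-expressed in F9 mouse embryonal carcinoma cells from a codon-optimised, HA-tagged construct carried by a transposon plasmid with puromycin selection, and was immunoprecipitated with an anti-HA antibody. Zfp6002 was processed in batch 2 and Zfp_MB018 in batch 4, each as 1 library, next to empty vector cells as the negative control and 1 mixed input per batch. All transfected cells therefore shared the host line, the vector and the selection, and peaks report an over-expressed tagged protein rather than the endogenous one. With 1 library per protein no value below has a replicate check, intervals are exact 95% binomial (Clopper-Pearson) intervals that cover counting error only, and protein and batch cannot be told apart.

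KZFPs bind DNA through a row of C2H2 zinc fingers, each of which contacts a few bases, and the KRAB domain recruits TRIM28 and the histone methyltransferase SETDB1, which place H3K9me3 and silence the bound locus. In the mouse many of these proteins bind endogenous retroviruses in early embryonic cells. Gammaretroviruses carry long terminal repeats (LTRs) on either side of an internal region that holds gag, pol and env, and the part of the internal region next to the 5′ LTR contains the primer binding site and the packaging signal.

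The fingerprint amino acids, those of each finger that contact DNA, place the proteins side by side. Zfp6002 has 22 fingers and Zfp_MB018 has 11. The 11 fingers of Zfp_MB018 aligned without a gap to fingers 6 to 16 of Zfp6002, and 9 of 11 had identical fingerprints, with differences in fingers 3 and 11 of Zfp_MB018. Zfp6001, Zfp6003 and Zfp_MB035 share 1 array of 18 fingers, which equals fingers 1 to 17 of Zfp6002 followed by its last finger. Zfp6002 thus has 4 fingers, 18 to 21, with no partner in that array, and these 3 proteins are the nearest relatives with which the lists are compared below.

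The sequences that carry the finding are stretches of 42 bp from sites bound by both proteins, on GRCm39 and in the orientation of the provirus, with the 12-base RCADE motif of Zfp6002, which rests on its fingers and its peaks (CTGGCCCTTTTC, first block of capitals), and the 13-base MEME motif of Zfp6001 (TTATAGAGATCAG, read here on the other strand, second block of capitals). Both motifs come from the study's supplement. The first line is the provirus between Trp53inp1 and Ccne2 on chromosome 4. Among common sites with both motifs, the next lines are those with the highest fold enrichment for Zfp6002 and the site highest for Zfp_MB018. They are followed by a site with 2 changes in the first block and a site that did not align to the provirus over 100 bp. The Hsp90aa1 promoter, a common site with a high Zfp6002 fold and neither motif, is shown further below.
Provirus, chr4:11182717-11182758, minus strand: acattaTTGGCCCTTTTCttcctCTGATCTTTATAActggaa
Gm6943 intron, chr12:19593483-19593524, minus strand: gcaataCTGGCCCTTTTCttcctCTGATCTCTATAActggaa
9030624G23Rik intron, chr12:24077428-24077469, plus strand: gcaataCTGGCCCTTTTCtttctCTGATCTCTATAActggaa
Gm45957 intron, chr9:4209674-4209715, minus strand: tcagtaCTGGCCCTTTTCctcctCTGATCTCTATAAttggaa
Fhit intron, chr14:12197211-12197252, minus strand: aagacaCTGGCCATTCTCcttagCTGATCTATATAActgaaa
Chromosome 17 site, chr17:87969090-87969131, minus strand: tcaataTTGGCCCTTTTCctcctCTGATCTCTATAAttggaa
Counted from 1 at the 5′ end of the 12-base motif, the provirus and the chromosome 17 site carry C1T, and the Fhit site carries C7A and T10C. The MEME motif of Zfp_MB018 holds the same letters with an ambiguous one among them, and that of Zfp6002 covers part of them on the other strand.

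Sites common to both lists were few and had higher folds than the rest of each list. A total of 19 peaks of Zfp6002 overlapped a peak of Zfp_MB018 by at least 1 bp, which is 16.8% of the Zfp6002 list (95% interval 10.4 to 25) and 11.2% of the Zfp_MB018 list (6.86 to 16.9). For comparison, 0.137% of the 24060 peaks of the 37 lists outside these 5 proteins overlapped a peak of Zfp6002 and 1.23% overlapped a peak of Zfp_MB018. The median fold enrichment over input was 30 for Zfp6002 and 18.3 for Zfp_MB018 at the common sites, against 15.2 and 11.8 at their remaining peaks. Of the 19 sites, 18 were also in the lists of all 3 relatives, and the site outside those lists was at the promoter of Hsp90aa1.

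Fold enrichment at the common sites was higher for Zfp6002 at 16 of 19, but the lists themselves give no read totals. The study reports more reads for the Zfp_MB018 library than for the Zfp6002 library, and fewer reads for the input of the Zfp_MB018 batch. Since depth differed and the batches had inputs of their own, folds of different libraries are placed side by side without a test. In an intron of Gm6943 on chromosome 12 the fold was 90.1 for Zfp6002, the highest of its list, and 22.4 for Zfp_MB018. In an intron of 9030624G23Rik, 71.2 stood beside 21.7. The 3 relatives reached 69.9 (Zfp6001), 75.4 (Zfp6003) and 249 (Zfp_MB035) at this site. The reverse order was found in an intron of Gm45957 on chromosome 9 (34.6 for Zfp6002 and 38.2 for Zfp_MB018), in an intron of Malrd1 (12.1 and 17) and at the chromosome 17 site 9041 bp from Gm65599 (13.3 and 22.1). In the intron of Fhit, which encodes a diadenosine triphosphate hydrolase, the values were close, at 20.6 and 20.3. These orders show that the site that is highest in one list was not the highest in the other.

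**Figure D1:**
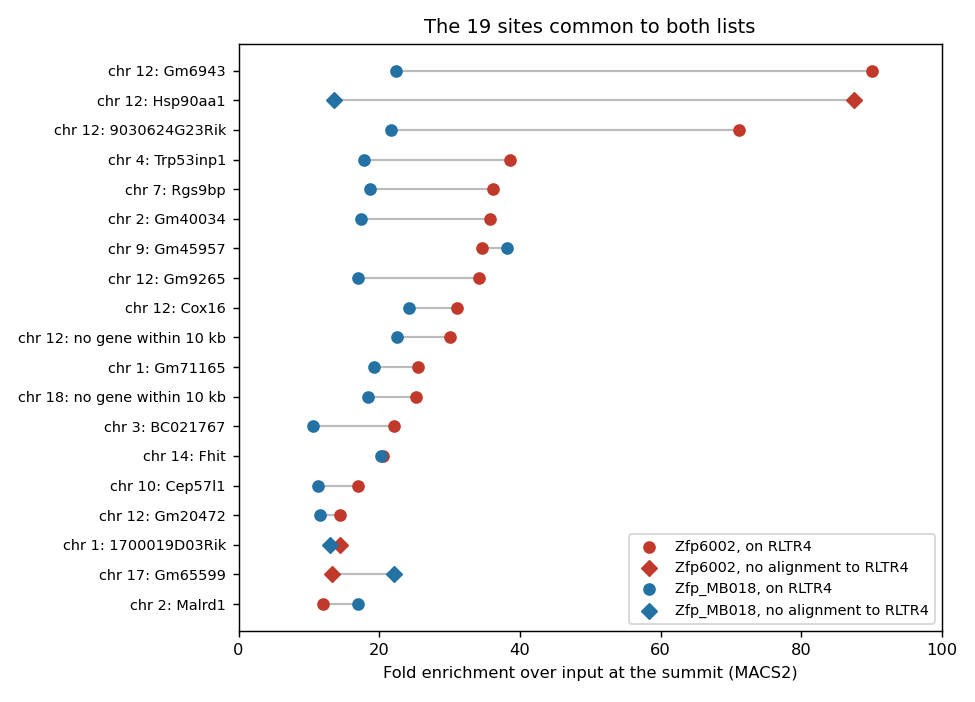
Fold enrichment over input (x axis, linear) of Zfp6002 (red) and Zfp_MB018 (blue) at each of the 19 common sites, named by chromosome and nearest gene within 10 kb. The Hsp90aa1 site is named by its promoter, although its Zfp6002 summit lay inside Gm60091. Circles are sites whose summit window aligned to the RLTR4 internal region and diamonds the 3 that did not. Hsp90aa1 has the second highest red value, 87.6, and one of the lower blue values, 13.5.

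The summits of the paired peaks were close together. Their distance ranged from 1 to 74 bp with a median of 14 bp, and 16 of 19 pairs were within 25 bp. In the orientation of the provirus or, off the provirus, of the motif, the Zfp6002 summit lay on the 3′ side of the Zfp_MB018 summit at 11 sites and on the 5′ side at 6, and the remaining sites had no orientation. The most distant pair, 74 bp, was in an intron of Gm20472 on chromosome 12.

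RLTR4 was represented by the provirus between Trp53inp1, which encodes a p53-induced regulator of autophagy, and Ccne2, which encodes cyclin E2. Its LTRs lay at chr4:11175889-11176469 and chr4:11183874-11184455 and were 95.7% identical, and the internal region between them was 7404 bp long. The 3 longest open frames (350, 315 and 264 codons) were all on the minus strand, whereas the longest on the plus strand had 169 codons, and positions are therefore counted on the minus strand, from the end next to the 5′ LTR. The family name was taken from the study, and no repeat annotation was used here. Both proteins had a peak at this provirus, with a fold of 38.6 for Zfp6002 and 17.9 for Zfp_MB018, 7487 bp from Trp53inp1 and 7586 bp from Ccne2. The relatives had folds of 48 (Zfp6001), 48 (Zfp6003) and 129 (Zfp_MB035) there.

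A summit window of 200 bp was counted as on RLTR4 when at least 100 bp aligned to the internal region at 80% identity or more. This held for 9 of 113 Zfp6002 peaks (7.96%, interval 3.71 to 14.6) and for 8 of 170 Zfp_MB018 peaks (4.71%, 2.05 to 9.06), and for 2 of 24060 windows (0.00831%) of the 37 other lists. The share depended on the identity asked for. At 70% it was 40 of 113 (35.4%, 26.6 to 45) for Zfp6002 and 15 of 170 (8.82%, 5.02 to 14.1) for Zfp_MB018, with 0.0208% of the windows of the other lists, and at 90% it was 3 and 2 peaks. Most of the RLTR4-related sites of Zfp6002 were thus between 70% and 80% identical to the provirus. All further statements on RLTR4 sites use the 70% limit, which leaves 73 and 155 peaks without an alignment. At this limit the term means similarity to the provirus, and membership of the RLTR4 family was not checked for the single sites. The name of the group rests on RLTR4, so that these shares describe the lists and test nothing.

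All 40 RLTR4 sites of Zfp6002 and all 15 of Zfp_MB018 overlapped a peak of at least 1 of the relatives. Of the 40, 16 (40%) overlapped a Zfp_MB018 peak, and of the 15, 13 (86.7%) overlapped a Zfp6002 peak. Each window was centred on the summit of its own list, and at 3 common sites (in introns of Malrd1 and Fhit, and near Rgs9bp) the Zfp6002 window aligned and the Zfp_MB018 window did not. These 3 are therefore among the 155 Zfp_MB018 peaks counted off RLTR4. The median fold was 20.8 at RLTR4 sites and 14.5 elsewhere for Zfp6002, and 17.9 and 11.8 for Zfp_MB018.

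The summits fell on a short segment of the internal region. The 40 Zfp6002 summits lay between positions 1125 and 1172 with a median of 1140, and the 15 Zfp_MB018 summits lay between 1093 and 1189 with a median of 1136. This is in the 5′ part of the region and before the 3 longest open frames, the first of which starts at position 2592. A shorter frame of the minus strand, of 169 codons, starts at position 508, upstream of the summits. The summits are therefore not ahead of all open frames, and the place of gag was not mapped here. The 12-base motif lies at 1122 to 1133 of the provirus with 1 mismatch and the Zfp6001 motif at 1139 to 1151, also with 1 mismatch (G6A), and their centres are 17.5 bp apart. The medians for Zfp6001, Zfp6003 and Zfp_MB035 were 1157, 1151 and 1149. Compared site by site, the Zfp6002 summit was on the 5′ side of the Zfp6001 summit at 28 of 40 sites (median shift −7 bp) and of the Zfp_MB035 summit at 23 of 40 (−2.5 bp). Zfp_MB018 summits were shifted by −14 bp from those of Zfp6001 over 14 sites and by −2 bp from those of Zfp_MB035 over 15 sites. These shifts are smaller than the range of summit positions within each list.

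**Figure D2:**
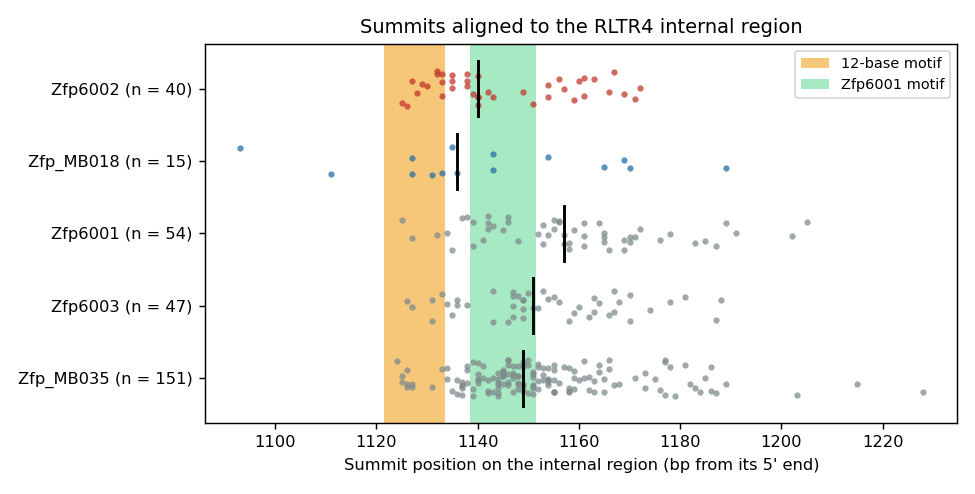
Position of each summit on the internal region of the provirus (x axis, bp from the 5′ end of the internal region) for both proteins and the 3 relatives, with 1 point per peak, the median as a black bar and the motif positions shaded. The medians are 1140 for Zfp6002 and 1136 for Zfp_MB018, and the relatives have medians of 1149 to 1157.

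The 12-base motif with at most 1 mismatch was in the 200 bp window of 30 of 113 Zfp6002 peaks (26.5%, 18.7 to 35.7) and of 16 of 170 Zfp_MB018 peaks (9.41%, 5.48 to 14.8). It was in 43 of 24060 windows of the 37 other lists (0.179%) and in 19402 of 13249381 adjoining 200 bp windows of the genome (0.146%), both strands searched. In windows of the same length 1000 bp upstream of the summits it was in 0 and 1 windows. The motif was derived from the Zfp6002 peaks, so that its presence in that list is a description. On RLTR4 it was found in 26 of 40 Zfp6002 windows and in 14 of 15 Zfp_MB018 windows, and off RLTR4 in 4 of 73 and 2 of 155, the latter being the chromosome 17 site and the Malrd1 site, which aligned in the Zfp6002 window. The Zfp6001 motif, with at most 2 mismatches, was in 39 of 40 and in all 15 RLTR4 windows, and in 0.179% of the windows of the other lists. Where both motifs were found on RLTR4 with at most 2 mismatches (35 and 14 windows), they had the spacing of the provirus in each window. Among the 40 RLTR4 windows of Zfp6002, 6 held the exact 12-base motif and 22 the exact Zfp6001 motif.

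The summit of Zfp6002 lay a median of 12.5 bp on the 3′ side of the centre of the 12-base motif (range −2.5 to 44.5 bp, 36 windows) and that of Zfp_MB018 a median of 12 bp (−34.5 to 62.5 bp, 14 windows). In the relatives the median was between 21.5 and 30.5 bp. The summit was over or between the motifs in 23 of 36 Zfp6002 windows and in 7 of 14 Zfp_MB018 windows, and a summit called from fragments of sonicated chromatin does not resolve single bases.

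The genome holds many copies of the bound segment that were not in the lists. The 200 bp around the motif (positions 1027 to 1226 of the internal region) aligned over 100 bp or more at 80% identity to 41 places on the chromosomes, of which 12 lay in a Zfp6002 peak and 7 in a Zfp_MB018 peak. At 70% the search found 503 copies, of which 27 (5.37%) and 13 (2.58%) lay in a peak. The search did not find every site counted on RLTR4 by its own window, of which there were 40 and 15. The Gm45957 site, with the exact 12-base motif, is not among the 503. The shares therefore hold for the copies found, and the full number of copies in the genome is not known. All 27 and all 13 also lay in a peak of Zfp_MB035, and 11 of the 13 copies under Zfp_MB018 peaks were under Zfp6002 peaks.

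Among the 503 copies, the letters of the 12-base motif differed between copies inside and outside peaks. Of 6 copies with the exact motif, 5 were in a Zfp6002 peak and 4 in a Zfp_MB018 peak. The most frequent form, CTGGCCTTTTTC (C7T), was present in 190 copies, of which 7 and 4 were in peaks, whereas the form of the provirus, TTGGCCCTTTTC (C1T), was present in 12 copies, of which 8 and 5 were in peaks. With both changes together, TTGGCCTTTTTC, 113 copies had no peak of either protein. The form CTGGTCATTTTC was present in 101 copies, of which 1 was in a Zfp6002 peak. The second motif also separated the copies. With 1 mismatch in the 12-base motif and at most 1 in the Zfp6001 motif, 12 of 24 copies were in a Zfp6002 peak and 8 of 24 in a Zfp_MB018 peak, against 4 and 1 of 190 copies with 2 or more mismatches in the Zfp6001 motif. All 5 copies with the exact 12-base motif and at most 1 mismatch in the other were in a Zfp6002 peak, and 4 of them in a Zfp_MB018 peak. Since the motifs were found on these peaks, and since 1 of several equally good alignments was kept at random by the authors, these counts are a description of which copies reached the lists.

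**Figure D3:**
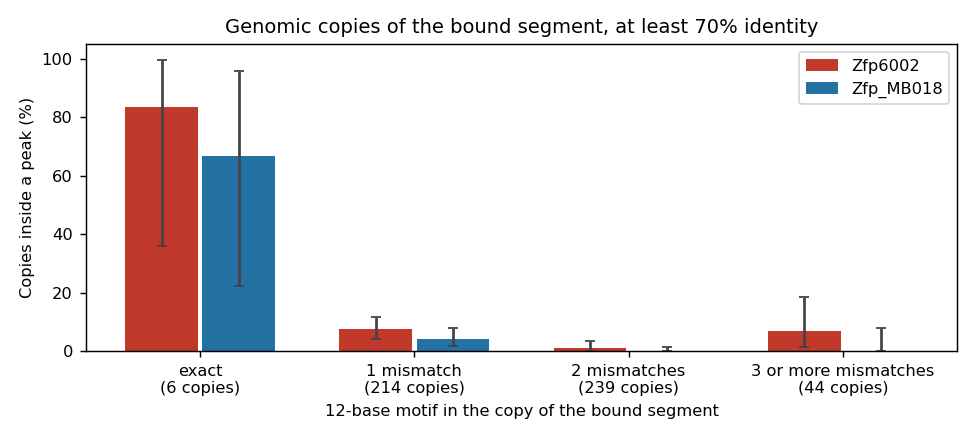
Share of the copies of the bound segment found by the genome search (at least 70% identity) that lay in a peak (y axis, %). Copies are grouped by the number of mismatches in the 12-base motif, for Zfp6002 (red) and Zfp_MB018 (blue), with exact 95% binomial intervals as error bars. Bars fall from 83.3% and 66.7% of 6 exact copies to 7.48% and 4.21% of 214 copies with 1 mismatch. With 2 mismatches they are 1.26% and 0% of 239 copies, and with 3 or more 6.82% (3 copies) and 0% of 44.

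Sites off RLTR4 made up most of each list. Of the 73 such peaks of Zfp6002, 29 (39.7%) overlapped a peak of a relative, 9 (12.3%) a peak of the 37 other lists, and 37 (50.7%) were in no other list. Of the 155 such peaks of Zfp_MB018, 53 (34.2%) overlapped a peak of a relative, 88 (56.8%) a peak of the 37 other lists, and 45 (29%) were in no other list. Over the whole lists of 113 and 170 peaks, RLTR4 sites included, the lists with most overlaps were as follows. They were Zfp_MB035 (61 peaks) and Zfp6001 (60) for Zfp6002, and Zfp_MB035 (68) and Zfp_MB011 (46) for Zfp_MB018. Zfp_MB011 overlapped 0 peaks of Zfp6002. In all, 6 of 113 peaks of Zfp6002 and 29 of 170 peaks of Zfp_MB018 were in 5 or more other lists. Such shares of overlap, here and at promoters below, were computed for the lists of Zfp6002 and Zfp_MB018 only. Whether they differ from the usual share in the series is not known.

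Of the common sites, 3 had no alignment of 100 bp to the provirus in the window of either list and were of different kinds. The site on chromosome 17, between genes and 9041 bp from the lncRNA gene Gm65599, held both motifs at the spacing of the provirus (sequence above), with the Zfp6001 motif exact. The site in an exon of 1700019D03Rik, 564 bp from Hibch, which encodes an enzyme of valine breakdown, had folds of 14.4 and 13 and held neither motif within 2 mismatches, and its folds in the relatives were 17.2, 15.9 and 62.5. The third was the Hsp90aa1 promoter. With the 80% limit there were 12 common sites off RLTR4, and the genes that held or lay within 10 kb of the other 9 were Malrd1, Gm37416, Rgs9bp, Gm45957, Gm5363, Cep57l1, Sesn1, Gm20472, Gm61257, 9030624G23Rik, Cox16, S2bpcox16, Adam4 and Fhit, with 1 site on chromosome 12 without a gene in that distance.

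The Hsp90aa1 promoter was bound in both lists and in none of the other 40. Hsp90aa1 (ENSMUSG00000021270, chr12:110656842-110669166, minus strand) encodes the stress-inducible isoform of the chaperone HSP90. The fold was 87.6 for Zfp6002, the second highest of its list, and 13.5 for Zfp_MB018, and the summits were 83 and 62 bp upstream of the transcription start. The Zfp6002 summit also lay inside the annotated gene Gm60091, with Gm60092 at 3237 bp and Gm53768 at 8894 bp. The 150 bp before the start are shown with the bases between both summits in capitals.
Hsp90aa1 promoter, chr12:110669167-110669316, minus strand: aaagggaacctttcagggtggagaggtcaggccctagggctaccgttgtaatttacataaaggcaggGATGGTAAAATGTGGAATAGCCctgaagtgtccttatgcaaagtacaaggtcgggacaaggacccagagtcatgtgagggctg
Neither motif was found with at most 2 mismatches in the 200 bp around these summits.

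Besides Hsp90aa1, 1 of the 5 highest peaks of Zfp6002 was off RLTR4. It lay in an intron of Atf3, a stress-induced transcription factor, with a fold of 52.3 and no peak in any other list. Its summit was 2753 bp from the nearest transcription start. The remaining peak among the 5 highest was on RLTR4, 2636 bp from the start of the pseudogene Gm48251 on chromosome 13 (40.2). Among the 44 Zfp6002 peaks that no relative shared, 0 were on RLTR4, 17 (38.6%, 24.4 to 54.5) were at promoters and 1 held the 12-base motif with at most 1 mismatch, that of Helz2. For comparison, 7 of 29 Zfp6002 peaks off RLTR4 that a relative shared were at promoters (24.1%, 10.3 to 43.5). In the 40 other lists it was 27.2% of 24434 summits off RLTR4, a share inside both intervals. Off RLTR4, the motif was in 3 further windows of Zfp6002, at the chromosome 17 site, at the lncRNA promoter Gm75150 and 9015 bp from the start of Gm11981. The sites with this motif that were not common to both lists are shown with the same capitals.
Helz2 promoter, chr2:180883989-180884030, plus strand: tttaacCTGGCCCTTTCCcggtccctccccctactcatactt
Gm75150 promoter, chr2:27386926-27386967, plus strand: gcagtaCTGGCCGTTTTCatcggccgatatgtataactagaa
Near Gm11981, chr11:6658147-6658188, minus strand: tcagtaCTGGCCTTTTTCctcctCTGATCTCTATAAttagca
The Gm11981 site carried both motifs, as the RLTR4 sites do, while the Helz2 site (T11C) and the Gm75150 site (C7G) carried the 12-base motif without a match to the second motif. The summit window at Gm75150 did not reach 100 aligned bp, but the site is 1 of the 503 copies at 70% identity, aligned over 113 bp, and it was the only Zfp6002 peak counted off RLTR4 that held such a copy.

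The highest peak of Zfp_MB018 was off RLTR4. It lay between genes at chr9:19981768, 12910 bp from the start of the olfactory receptor gene Or7d11, with a fold of 48.8. Its window belonged to the largest group of related sequences off RLTR4, 17 windows on 11 chromosomes that were linked by alignments of at least 100 bp at 80% identity. All 17 were Zfp_MB018 peaks, 0 were at promoters, 11 overlapped a Zfp_MB035 peak and 5 were in no other list. The other 16 had folds of 10 to 18.7, so that the leading site stood far above its group. Aligned to the leading window, the 17 summits fell between 38 bp before and 58 bp after its own summit. The 200 bp of this window are printed with that stretch in capitals, which marks the range of the summits and not a sequence found to be shared. Identity to the leading window ranged from 73.6% to 92.4%.
Leading site, chr9:19981668-19981867, plus strand: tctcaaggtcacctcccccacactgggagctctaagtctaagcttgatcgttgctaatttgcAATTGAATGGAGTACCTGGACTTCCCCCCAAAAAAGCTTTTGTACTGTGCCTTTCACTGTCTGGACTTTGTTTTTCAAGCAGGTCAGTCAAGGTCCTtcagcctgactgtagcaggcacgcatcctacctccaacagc
The 12-base motif was not found in it with up to 2 mismatches.

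The remaining high peaks of Zfp_MB018, except the third, were also shared with lists other than those of Zfp6002 and the relatives. The second was 4845 bp upstream of Mir290a, the first gene of a microRNA cluster of pluripotent cells that also holds Mir290b and Mir291a, with a fold of 41.9 and peaks of Rex2 and Zfp_MB035 at the same place. Nlrp12 lay within 10 kb as well. The third was the Gm45957 site given above, which was shared with Zfp6002 and the relatives only. The fourth (34.5) was 12188 bp from the start of Erdr1x on the X chromosome and was shared with 9 other lists. The fifth (29.8) was in an intron of Pprc1, 1397 bp upstream of Ldb1, a LIM domain cofactor, and was shared with Zfp982. On the Y chromosome 12 Zfp_MB018 peaks lay within chr Y 90729948 to 90822367, around Gm57952 and Erdr1y, with folds of 10.2 to 22.9, and 11 of the 12 overlapped a peak of the 37 other lists. The windows in both Erdr1 regions were similar in sequence (10 windows in 1 group), and their number is not a count of independent sites.

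**Figure D4:**
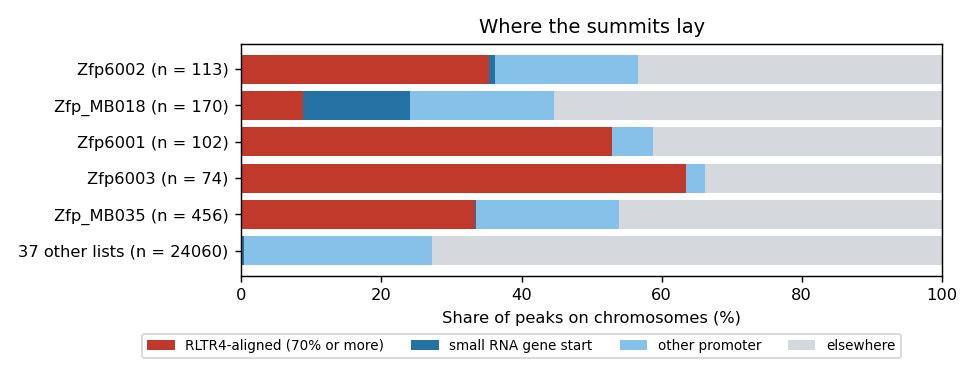
Share of peaks on chromosomes (x axis, %) that aligned to RLTR4 at 70% identity or more, had a summit within 1000 bp of a small RNA gene start or of another transcription start, or lay elsewhere, for each list and for the 37 other lists pooled. RLTR4 sites make up 35.4% of Zfp6002 and 8.82% of Zfp_MB018, and small RNA starts 15.3% of Zfp_MB018.

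Promoter sites, with a summit within 1000 bp of an annotated transcription start, were 25 of 113 for Zfp6002 (22.1%, 14.9 to 30.9) and 62 of 170 for Zfp_MB018 (36.5%, 29.2 to 44.2). The share in the 40 other lists was 27% of 24692 summits, and 8.38% of the genome outside gaps lies within that distance. The order of Zfp_MB018 and the other lists turned with the definition. With starts of protein-coding transcripts only, the share was 13.3% for Zfp6002, 13.5% for Zfp_MB018 and 18.7% in the 40 other lists, and among peaks with a fold of at least 20 it was 20.9% (9 of 43), 4.76% (1 of 21) and 24%. Without the small RNA genes it was 36 of 144 for Zfp_MB018 (25%, 18.2 to 32.9). By its summit window, 1 promoter site of each list was on RLTR4, and it was the same one, at the lncRNA gene Gm40034 on chromosome 2, with folds of 35.8 and 17.4.

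The promoter sites of Zfp6002 were at 16 protein-coding genes, 7 lncRNA genes, 1 pseudogene and 1 snoRNA gene, and 12 of 25 were in no other list. After Hsp90aa1, the highest folds were at Yipf5, a protein of endoplasmic reticulum to Golgi transport (38), Spsb1, a substrate adaptor of a ubiquitin ligase (36.7), Gm40034 (35.8), Rhpn2 (29.4), Gal3st2b, a sulfotransferase (27.1), the lncRNA gene Gm34372 (25.4), Helz2, a helicase that acts as a nuclear receptor coactivator (23.3), Rragb, a Rag GTPase of amino acid sensing (21.9), and Tgif1, a homeodomain repressor (19). Hsp90aa1 stood apart from these, at more than the fold of any other promoter of either list. Of the 16 summits at protein-coding genes, 12 were upstream of the start and 4 downstream, with a median of −169 bp and a range of −784 to 567 bp.

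The promoter sites of Zfp_MB018 had lower folds, from 10 to 20.1. They were at 19 snRNA, 6 snoRNA, 2 misc_RNA, 1 miRNA, 16 lncRNA, 15 protein-coding and 3 pseudogene starts, and 47 of 62 (75.8%) overlapped a peak of the 37 other lists, compared with 4 of 25 (16%) for Zfp6002. The same share was not computed for promoter peaks of the other lists. The 10 highest were Gm71744 (20.1), Erdr1y (19.7), Zbtb7a, a zinc finger repressor (18.2), the U1 gene Gm25679 (17.4), Gm40034 (17.4), Pcbp2, a poly(C)-binding protein (17), Mir6352 (17), the U2 gene Gm22973 (16.1), Polrmt, the mitochondrial RNA polymerase (15.9), and Snord118, which encodes U8 (15.9). Of these, Gm71744 was in 9 other lists and Polrmt in 12. At the 15 protein-coding genes the summits lay around the start, with a median of 10 bp and a range of −291 to 214 bp.

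Genes of small nuclear and nucleolar RNAs were a group among the promoter sites of Zfp_MB018. Small nuclear RNAs U1, U2 and U5 are parts of the spliceosome, U3 and U8 act in ribosomal RNA processing, and 7SK holds the elongation factor P-TEFb inactive. Peaks with such a gene as the nearest start within 1000 bp were 26 of 170 (15.3%, 10.2 to 21.6), against 80 of 24692 summits of the 40 other lists (0.324%), or 1.2% of their promoter summits. Zfp6002 had 1 of 113, 949 bp upstream of Gm26349. By sequence family, Zfp_MB018 had a summit at 10 of 33 U1 genes, 5 of 14 U2 genes, 4 of 7 U5 genes, 5 of 10 U3 genes, 1 of 2 U8 genes, 1 of 2 U11 genes and at the 7SK gene Rn7sk, and at 0 of 332 U6 genes. These are 27 genes, because they include the U11 gene Rnu11. Its summit, 274 bp downstream of its start, was nearer to the start of the lncRNA gene Gm28872 (fold 11.4) and is not among the 26. The families U12 (4 genes), U7, U4atac, Rmrp and Rpph1 (1 gene each) had 0 Zfp_MB018 summits. The 37 other lists together had a summit at 25 of the 409 genes of all families, among them 12 U1, 5 U2, 4 U3 and 0 U5 genes. The 26 peaks are not independent sites, since 24 of them fell into 4 groups of similar sequence and 16 lay in 4 local gene clusters, and the interval covers counting error only.

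The folds at these genes were low to moderate, from 10.2 to 17.4 with a median of 11.8. The values were 15.3 at Rnu1a1, 14.1 at Rnu1b6, 11.1 at Rnu2-10, 12.9 at Rnu5g, 13.4 at Rn7sk and 13.3 at Snord3a, and 11.8, 14.3, 14 and 13.2 at Snord3b1, Snord3b2, Snord3b3 and Snord3b4. All 26 summits lay downstream of the start, by 64 to 210 bp with a median of 125 bp, and 23 of 26 were inside the annotated small RNA gene. The 12-base motif was found in 0 of the 26 windows with up to 2 mismatches. Of the 26 peaks, 19 overlapped a peak of the 37 other lists and 14 one of Zfp_MB011, whose list had 16 peaks of this kind among 294 (5.44%). The share in Zfp_MB018 was the highest of the 42 lists. The second highest share, 3 of 51 (5.88%), was that of Zfp600, which was also in batch 4. The other 19 lists of batch 4 together had 38 such peaks among 15039 (0.253%), a pooled share in which the long lists weigh most. The part of the batch in the result was not tested.

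**Figure D5:**
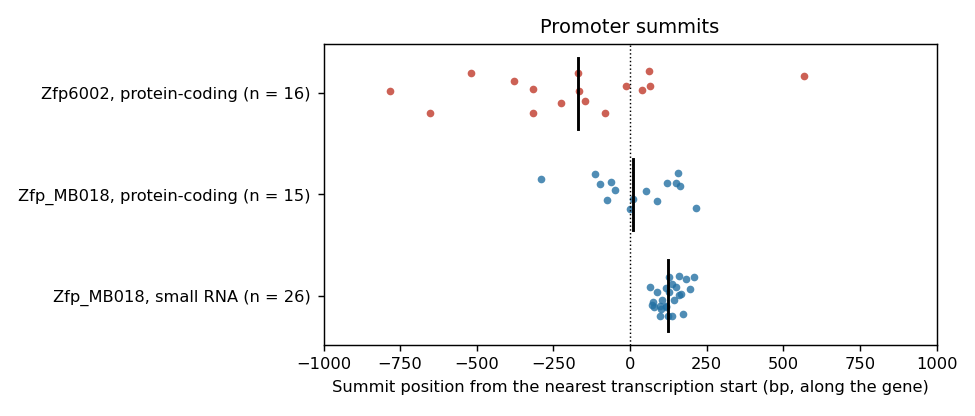
Summit position from the nearest transcription start (x axis, bp along the gene, negative upstream) for promoter peaks at protein-coding genes in both lists and at small RNA genes in the Zfp_MB018 list, with 1 point per peak and the median as a black bar. All 26 small RNA summits are downstream of the start, between 64 and 210 bp, while 12 of 16 Zfp6002 summits at protein-coding genes are upstream.

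The listed gene groups are small, and few protein-coding genes had a site at all. A count of 0 therefore does not set a group apart. A summit in the gene or within 10 kb was found for 90 of 21738 protein-coding genes (0.414%) for Zfp6002 and for 135 (0.621%) for Zfp_MB018. None of 28 genes of KRAB-dependent silencing, 10 pluripotency genes (1 of the 11 listed symbols was not matched in the annotation) or 99 cytosolic ribosomal protein genes had such a summit in either list. Of 449 zinc finger protein genes, 0 had one for Zfp6002 and 3 (0.668%) for Zfp_MB018, which is close to the share of all genes. These were Zfp777 (fold 16.8, exon, shared with 10 other lists), Zfp141 (11.4, intron) and Zfp30 (10.4, exon).

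The lowest folds inside the lists were 10.02 for Zfp6002 and 10 for Zfp_MB018, as set by the authors' limit of 10, and peaks below it were not analysed here.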

How the data were processed

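Deposited MACS2 peak lists were used, 1 per protein. Per the study's methods, the authors mapped read pairs with BWA on GRCm39, keeping 1 of equally good alignments at random, removed duplicates with SAMtools 1.19, called peaks with MACS2 2.2.7.1 against the batch input, dropped any peak overlapping an empty vector peak, and kept q of 0.01 or less and a fold of at least 10. In the deposited lists the score, the fold enrichment (a ratio over input), −log10 of the p-value, −log10 of the q-value and the summit offset were taken as given; no count test was possible. Windows of 200 bp around summits were aligned to the provirus with blastn 2.17.0 (word size 7), motifs were searched on both strands, and genes came from GENCODE M39. Peaks were compared by an overlap of 1 bp. Alignment and motif search were tested on simulated data. Scaffold peaks were left out. Members, gene lists and motifs were chosen with earlier results of these data known. Named genes were those of the 10 highest promoter peaks, within 10 kb of the 5 highest peaks or of common peaks off RLTR4, and listed genes with a peak, besides Trp53inp1 and Ccne2. Alternatives covered identity, alignment length, window, promoter distance, mismatches and a fold of 20.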

Additional observations from a re-analysis of the deposited data

How the results depend on the processing

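Each setting was changed alone. The RLTR4 share of Zfp6002 (7.96% at 80% identity) was 35.4% at 70%, 2.65% at 90%, 3.54% with 400 bp windows and 18.6% among peaks with a fold of at least 20, and that of Zfp_MB018 (4.71%) was 1.18% both at 90% and with 400 bp windows. Copies in a peak were 3 and 2 at 90% identity and 27 and 13 at 70%, against 12 and 7 at 80%. The promoter share was 13.3% and 13.5% with starts of protein-coding transcripts only, and that of Zfp_MB018 was 4.76% (1 of 21 peaks) at a fold of at least 20. The motif share was 5.31% and 2.94% without a mismatch, 41.6% for Zfp6002 with up to 2, and 46.5% and 28.6% at a fold of at least 20. Of the 19 common sites, 6 had a fold of at least 20 in both lists. The remaining 15 recomputed values stayed within the interval or 1.5 times of the main value. The cause of these changes was not tested. No paired analysis was possible because each protein has 1 library, which also means that no replicate could be left out. Sites under the fold limit, or in copies to which reads could not be placed uniquely, are not detectable in these lists.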
